A study of Mus musculus with 89 samples.

Results

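The transcripts of 6 genes of the red cell lineage, the globin genes Hba-a1, Hba-a2 and Hbb-bt together with Alas2, Slc4a1 and Ahsp, were followed in the lung of mice exposed to copper oxide (CuO) nanomaterials. They were taken as all non-control probes of the array whose transcript accession belongs to these 6 genes, which gave 7 of 56605 probes and 6 of the 22912 genes that could be named. The genes were chosen by their levels in these same samples, so those levels and differences are given as a description and carry no test.

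Female BALB/c mice aged 6 to 8 weeks, all sensitised to ovalbumin (OVA) in alum, were exposed by oropharyngeal aspiration on 4 consecutive days, and lung tissue was collected 24 h after the final exposure. Each material was given in PBS alone (PBS-challenged mice) or together with OVA (OVA-challenged mice, the model of allergic airway inflammation). The materials were uncoated core CuO and CuO carrying carboxyl (CuO COOH), ammonium (CuO NH3) or polyethylene glycol (CuO PEG) groups on its surface, at 2.5, 10 or 40 μg per mouse at each administration; the unit is μg in the sample descriptions and mg in one protocol text, and μg is used here. Every exposed group held 3 samples, except PBS-challenged CuO NH3 and CuO PEG at 10 μg with 4 each; the PBS controls numbered 7 and the OVA controls 8, for 89 samples in 26 groups. Each sample was an independent pool of 2 RNA preparations from the lung, hybridised as 1 channel of a 2-colour array, so the spread is that between pools and not between single mice. Blood was drawn from the vena cava and the airways were lavaged before a piece of the left lobe was taken, and the methods read here mention no flushing of the vessels. Materials were unevenly spread over the 6 slides of arrays: core CuO and CuO COOH lay on slides 1 to 3, CuO NH3 and CuO PEG on slides 4 to 6, and controls on both sets.

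Haemoglobin is assembled from α-globin chains, encoded by Hba-a1 and Hba-a2, and β-globin chains such as the one encoded by Hbb-bt, each carrying haem. Alas2 is the erythroid form of the enzyme that opens haem synthesis, Ahsp is the chaperone that holds free α-globin in a stable form, and Slc4a1 encodes band 3, the anion exchanger of the red cell membrane. Mature mammalian red cells have no nucleus and make no new RNA, whereas reticulocytes, the young cells just released from the marrow, still carry globin mRNA, so that a lung sample containing blood contains these transcripts.

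The stretch of 250 bases before the RefSeq transcription start is shown for those of the 6 genes that had a window, so that their sequences can be compared. Windows were found for 4 of the 6 genes, in build GRCm38.p6 of the C57BL/6J reference. They lie at chr11:32283422-32283671 for Hba-a1 (plus strand), chr11:32296242-32296491 for Hba-a2 (plus strand), chr7:103813924-103814173 for Hbb-bt (minus strand) and chrX:150547167-150547416 for Alas2 (plus strand). Slc4a1 and Ahsp had no window in the table used. Sequences run 5′ to 3′ and end at the base before the start, and capitals mark every match, on either strand, to the GATA-type word AGATAA (with T also taken in its first place and G in its last), to the CACC-type word CCNCNCCC, to CCAAT or to TATAAA, with adjacent or overlapping matches run together.
Hba-a1: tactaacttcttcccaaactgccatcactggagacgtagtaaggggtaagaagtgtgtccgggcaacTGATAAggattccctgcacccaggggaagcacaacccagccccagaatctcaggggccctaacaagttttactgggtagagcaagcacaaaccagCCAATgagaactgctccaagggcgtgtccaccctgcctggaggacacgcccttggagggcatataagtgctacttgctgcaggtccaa
Hba-a2: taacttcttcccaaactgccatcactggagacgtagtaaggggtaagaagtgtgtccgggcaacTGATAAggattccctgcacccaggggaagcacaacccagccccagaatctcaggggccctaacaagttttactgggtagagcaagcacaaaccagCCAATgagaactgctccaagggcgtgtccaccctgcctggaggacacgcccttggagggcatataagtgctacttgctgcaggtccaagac
Hbb-bt: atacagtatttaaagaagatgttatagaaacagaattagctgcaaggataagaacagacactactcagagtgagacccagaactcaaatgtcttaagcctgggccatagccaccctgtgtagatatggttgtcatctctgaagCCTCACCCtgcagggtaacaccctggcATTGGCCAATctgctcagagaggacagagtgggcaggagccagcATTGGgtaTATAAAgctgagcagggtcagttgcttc
Alas2: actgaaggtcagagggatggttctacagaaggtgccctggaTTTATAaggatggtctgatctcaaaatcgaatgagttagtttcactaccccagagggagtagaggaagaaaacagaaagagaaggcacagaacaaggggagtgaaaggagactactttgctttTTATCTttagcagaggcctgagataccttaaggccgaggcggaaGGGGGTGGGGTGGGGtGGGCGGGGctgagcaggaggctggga

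The Hba-a1 and Hba-a2 windows were identical at 247 of 247 positions once shifted by 3 bases. Each held a GATA-type word, beginning 183 bases before the start in Hba-a1 and 186 in Hba-a2, and a CCAAT word, at 88 and 91 bases. Alas2 held a GATA-type word at 86 bases and 4 CACC-type words, some overlapping, in the last 42 bases, with TATAAA on the minus strand at 209 bases, while Hbb-bt held none of the former, 1 CACC-type word at 107 bases, 3 CCAAT words and a TATAAA at 28 bases. Such words are common: of 32851 windows of the same length over all genes, 26.5% held a GATA-type word, 45.9% a CACC-type word, 33.8% CCAAT and 12.4% TATAAA. A match is a string of letters in this window and no evidence of binding.

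The probes differed in how far they rose above background. Hba-a1 was read by 2 probes and Hba-a2 by 1, each printed at 10 spots, and the other genes by 1 probe at 1 spot. Both α-globin genes, Hbb-bt and Alas2 were well above background in all 89 samples, Ahsp in 85 and Slc4a1 in 63. No spot was saturated in any sample used. The coding genes of Hba-a1 (chr11:32283672-32284486) and Hba-a2 (chr11:32296492-32297310) are near-identical copies, as are the β-globin genes around Hbb-bt (chr7:103812524-103813923), and BALB/c mice carry another β-globin haplotype than the reference, so a probe of one may also read its relatives. Alas2 lies at chrX:150547417-150570622 and Slc4a1 at chr11:102348820-102365281; Ahsp was not in the gene table used here and was recognised by its probe name in the probe list of the study. Levels below are log2 intensities with the effects of dye, slide and array position removed, and they are compared between samples, never between genes.

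In PBS-challenged mice the α-globin Hba-a1 was lower in all samples exposed to CuO NH3, CuO COOH or core CuO at 40 μg/mouse than in any PBS control. The PBS controls ran from 16.81 through a median of 16.94 to 17.38, with a mean of 17.01 ± 0.21 (SD, n = 7). With 40 μg/mouse of CuO the samples read 14.46, 15.08 and 15.10, at the same dose of CuO COOH 14.49, 15.01 and 15.31, and of CuO NH3 15.09, 15.41 and 15.63. All 3 groups sat together, more than 1 log2 unit under the lowest control. The CuO PEG samples at that dose read 16.60, 16.65 and 16.90, so that 1 of them lay within the range of the controls. Before dye, slide and position were removed this group averaged 16.67 ± 0.17 (SD, n = 3). The PBS controls then averaged 17.08 ± 0.07 (SD, n = 7), so the overlap depended on that removal. In bulk tissue fewer cells of a type and less RNA per cell cannot be told apart, which holds for every level given here.

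Lower doses moved Hba-a1 less. At 10 μg/mouse it stood at 16.53, 16.56 and 16.71 with CuO and at 16.16, 16.34 and 16.64 with CuO COOH, both groups under all the controls. With CuO NH3 the 4 samples read 16.16, 16.54, 16.68 and 16.85, and with CuO PEG 16.66, 16.67, 16.89 and 16.99, both overlapping the controls. Samples given 2.5 μg/mouse of the 4 materials lay between 16.78 and 17.50 and overlapped the controls throughout. These levels average both probes of Hba-a1, which fell unequally. At 10 μg/mouse of CuO the brighter probe averaged 17.09 ± 0.11 (SD), beside 17.27 ± 0.23 in PBS controls. The dimmer probe averaged 16.11 ± 0.14 beside 16.76 ± 0.23. With CuO COOH they averaged 16.92 ± 0.27 and 15.84 ± 0.25. The separation from controls at this dose thus rests largely on the dimmer probe.

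OVA challenge alone left Hba-a1 at 16.72, 16.99 and 17.35 for the lowest, median and highest of 8 samples, a mean of 17.00 ± 0.23 (SD, n = 8) beside 17.01 in the PBS controls. In OVA-challenged mice 40 μg/mouse gave 14.77, 15.11 and 15.21 with CuO, 14.15, 14.46 and 15.41 with CuO COOH, and 15.08, 15.26 and 15.67 with CuO NH3. CuO PEG gave 15.18, 15.42 and 16.09. Here all 4 materials lay entirely under the OVA controls. The 10 μg/mouse samples read 15.97, 16.14 and 16.29 with CuO, 15.10, 16.08 and 16.37 with CuO COOH, 15.32, 16.05 and 16.13 with CuO NH3, and 16.20, 16.28 and 16.49 with CuO PEG, again without overlap. At 2.5 μg/mouse the lowest sample was 15.85, with CuO NH3, and the highest 17.19, with CuO PEG, and no group was clear of the controls. The probes of Hba-a1 fell unequally here too. At 40 μg/mouse of CuO PEG the brighter averaged 16.41 ± 0.49 (SD), beside 17.35 ± 0.23 in OVA controls. The dimmer averaged 14.72 ± 0.46 beside 16.65 ± 0.25.

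Hba-a2, the second α-globin gene, was likewise low at 40 μg/mouse. It averaged 17.13 ± 0.25 (SD, n = 7) in PBS controls, whose lowest sample was 16.85, and 17.19 ± 0.25 (SD, n = 8) in OVA controls, whose lowest was 16.79. In PBS-challenged mice given 40 μg/mouse it read 14.93, 15.47 and 15.66 with CuO, 14.96, 15.32 and 15.92 with CuO COOH, 15.52, 15.81 and 15.99 with CuO NH3, and 16.80, 16.88 and 17.30 with CuO PEG. Only CuO PEG overlapped its controls at this dose. In OVA-challenged mice the same dose gave 15.37, 15.40 and 15.59 with CuO, 14.39, 14.81 and 15.92 with CuO COOH, 15.87, 15.92 and 16.27 with CuO NH3, and 15.94, 16.12 and 16.98 with CuO PEG. At 2.5 and 10 μg/mouse the group means ran from 16.18, at 10 μg/mouse of CuO COOH with OVA, to 17.31, at 2.5 μg/mouse of CuO COOH in PBS-challenged mice.

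Hbb-bt, the β-globin gene, was low at 40 μg/mouse as well. PBS controls ran from 15.75 through 16.02 to 16.67 (16.10 ± 0.29, SD, n = 7). The samples given 40 μg/mouse stood at 12.61, 13.11 and 13.21 with CuO, at 12.68, 13.14 and 13.24 with CuO COOH, at 13.27, 13.49 and 13.56 with CuO NH3, and at 15.14, 15.19 and 15.24 with CuO PEG. Each of the 4 groups was under the lowest control, the first 3 by over 2 log2 units and CuO PEG by less than 1. Given at 10 μg/mouse, CuO gave 14.85, 15.35 and 15.45, CuO COOH 14.46, 14.56 and 14.76, CuO NH3 14.40, 14.82, 14.87 and 14.99, and CuO PEG 15.31, 15.84, 15.89 and 15.94. All but CuO PEG were clear of the controls at that dose.

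OVA controls held Hbb-bt at 15.45, 15.76 and 16.32 for the lowest, median and highest (15.83 ± 0.27, SD, n = 8). With 40 μg/mouse it read 12.77, 13.29 and 13.44 for CuO, 12.74, 12.79 and 13.33 for CuO COOH, 12.90, 13.19 and 13.54 for CuO NH3, and 13.01, 13.41 and 13.73 for CuO PEG. The 4 materials overlapped one another in OVA-challenged mice, whereas in PBS-challenged mice CuO PEG stood apart above the rest. With 10 μg/mouse the values were 14.15, 14.67 and 14.67 for CuO, 14.07, 14.67 and 14.67 for CuO COOH, 13.25, 13.98 and 14.25 for CuO NH3, and 14.18, 14.68 and 15.00 for CuO PEG. With 2.5 μg/mouse CuO NH3 gave 14.09, 14.71 and 15.25 and CuO COOH 14.53, 15.01 and 15.44, all under the lowest OVA control, while CuO at 15.30, 15.49 and 15.58 and CuO PEG at 15.57, 15.93 and 16.08 overlapped the controls.

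Alas2, the haem synthesis enzyme, moved in step with Hbb-bt. It ran from 11.23 through 11.56 to 12.21 in PBS controls (11.66 ± 0.31, SD, n = 7) and from 10.61 through 11.11 to 11.45 in OVA controls (11.11 ± 0.27, SD, n = 8). Without OVA, 40 μg/mouse brought 8.29, 8.82 and 8.94 with CuO, 8.37, 8.65 and 8.71 with CuO COOH, 8.92, 9.06 and 9.08 with CuO NH3, and 10.14, 10.53 and 10.69 with CuO PEG. In OVA-challenged mice it stood at 8.31, 8.82 and 9.32, at 8.41, 8.72 and 8.83, at 8.75, 8.79 and 9.16, and at 8.47, 8.63 and 8.99 for the same materials in that order. All 8 groups were clear of their controls, and CuO PEG came level with the other materials under OVA challenge and not under PBS. Also without OVA, 10 μg/mouse of CuO gave 10.20, 10.37 and 10.63, CuO COOH 9.56, 9.70 and 9.95, and CuO NH3 9.60, 10.04, 10.21 and 10.24, all under the controls, while CuO PEG, at 10.54, 11.05, 11.24 and 11.35, overlapped them.

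**Figure D1:**
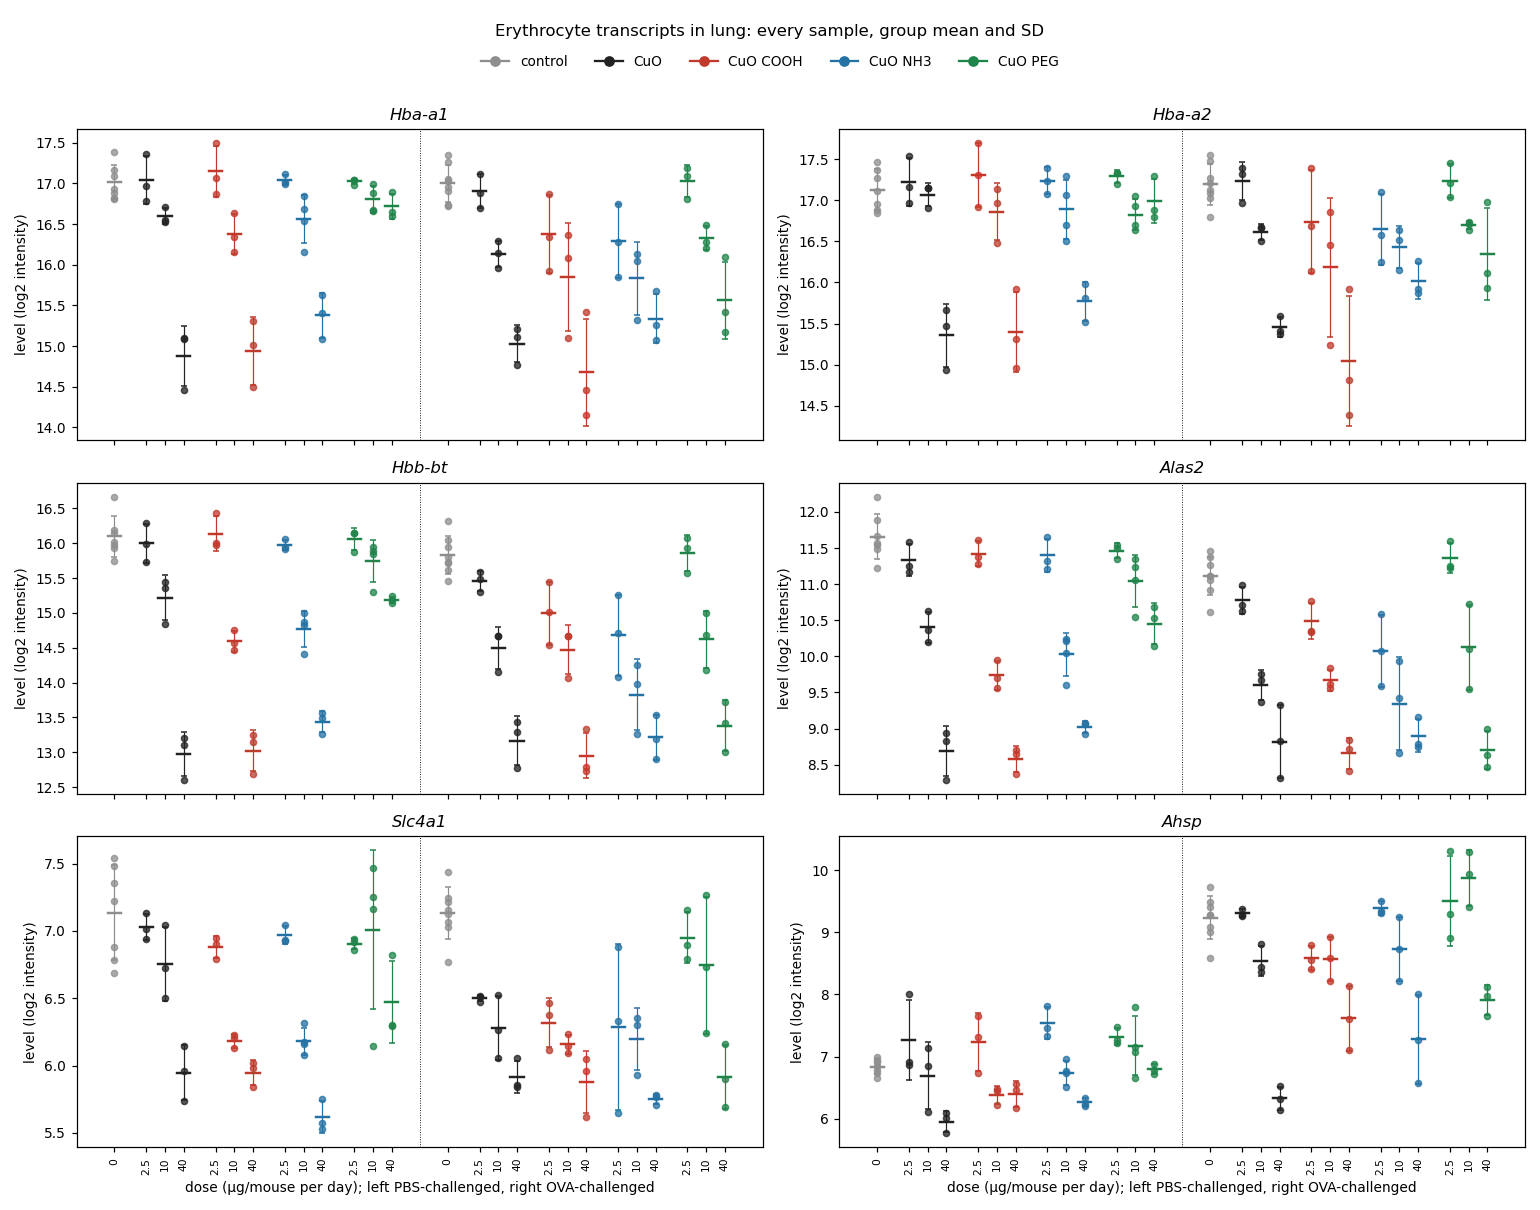
Levels of the 6 erythrocyte transcripts (y axis, log2 intensity after removing dye, slide and array position; each panel has its own scale) by dose in μg/mouse at each administration (x axis), with PBS-challenged mice left and OVA-challenged mice right of the dotted line; points are samples, thick dashes group means, bars SD, and colours the materials. Hbb-bt and Alas2 step down with dose in both challenges, at 40 μg/mouse the PBS-challenged CuO PEG group stays nearest the controls, and Ahsp is high with OVA, where the controls average 9.23 beside 6.84 in PBS controls.

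Slc4a1, the membrane anion exchanger, lay close to background, so its low values are bounds. PBS controls ran from 6.69 through 7.22 to 7.55 (7.14 ± 0.35, SD, n = 7) and OVA controls from 6.77 through 7.14 to 7.44 (7.13 ± 0.19, SD, n = 8). PBS-challenged mice given 40 μg/mouse showed 5.74, 5.96 and 6.14 with CuO, 5.84, 5.98 and 6.02 with CuO COOH, 5.53, 5.58 and 5.76 with CuO NH3, and 6.29, 6.31 and 6.82 with CuO PEG. OVA-challenged mice gave 5.84, 5.86 and 6.05, then 5.62, 5.96 and 6.05, then 5.71, 5.77 and 5.78, and for CuO PEG 5.69, 5.90 and 6.16. Only PBS-challenged CuO PEG overlapped its controls. The probe was not well above background in any sample of 5 of these groups, in which its values are upper limits. On the normalised values before dye, slide and position were removed, set against the lowest signal that was well above background, these groups were at least 2.2-fold to 2.38-fold lower than their controls; fitted differences given below can be smaller, since they take out batch effects and read the dim values as they stand.

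Ahsp, the α-globin chaperone, had a pattern of its own, set first by the challenge. PBS controls ran from 6.66 through 6.84 to 6.99 (6.84 ± 0.12, SD, n = 7) and OVA controls from 8.59 through 9.28 to 9.73 (9.23 ± 0.35, SD, n = 8). The lowest OVA control was above the highest PBS control by more than 1 log2 unit, although the globin levels of the 2 control groups overlapped. In OVA-challenged mice 40 μg/mouse of CuO gave 6.14, 6.32 and 6.52, CuO COOH 7.10, 7.60 and 8.13, CuO NH3 6.57, 7.26 and 8.00, and CuO PEG 7.65, 7.97 and 8.12. All 4 groups were under the OVA controls, and the CuO samples lay under the PBS controls as well. CuO PEG at 10 μg/mouse with OVA read 9.40, 9.93 and 10.28, the highest group mean of all 26 at 9.87, and the other materials read between 8.22 and 9.24.

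Without OVA, Ahsp was lower than in every control at the top dose of CuO (5.77, 6.00 and 6.09), CuO COOH (6.17, 6.45 and 6.56) and CuO NH3 (6.21, 6.24 and 6.34), and CuO PEG overlapped the controls at 6.72, 6.78 and 6.89. The probe was well above background in 2 of 3 samples of the CuO group and in 1 of 3 of the CuO NH3 group. At 2.5 μg/mouse it was above every control with CuO NH3 (7.33, 7.46 and 7.82) and CuO PEG (7.22, 7.27 and 7.48), the 2 groups in which any of the 6 transcripts lay above its controls. With 2.5 μg/mouse of CuO it read 6.87, 6.92 and 8.01, of which the highest stood far from the other samples of its group.

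Counted over the 6 transcripts, every sample lay under every control for all 6 with core CuO, with CuO COOH and with CuO NH3 at 40 μg/mouse, in both challenges. Among all genes the share with that separation was 17.3%, 17.3% and 18.5% in PBS-challenged and 7.38%, 9.02% and 9.72% in OVA-challenged mice. For CuO PEG at 40 μg/mouse it held for 2 of 6 in PBS-challenged mice, Hbb-bt and Alas2, beside 9.44% of all genes, and for 5 of 6, all except Hba-a2, in OVA-challenged mice, beside 3.58%. With PBS and 10 μg/mouse it held for 3 of 6 with CuO (8.77% of all genes), 5 with CuO COOH (12.7%), 3 with CuO NH3 (8.88%) and none with CuO PEG (2.63%). At the same dose with OVA it held for 5 with CuO (3.43%), 4 with CuO COOH (2.54%), 5 with CuO NH3 (4.21%) and 3 with CuO PEG (4.33%). At 2.5 μg/mouse with OVA it held for 1 with CuO (3.28%), 2 with CuO COOH (1.72%), 2 with CuO NH3 (5.19%) and none with CuO PEG (3.18%), and with PBS for none of the 4 materials. Ahsp lay above every control at 2.5 μg/mouse of CuO NH3 and of CuO PEG with PBS, as did 9.23% and 2.62% of all genes. Since the genes were chosen on these levels, nothing is read from these counts.

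Ranked by group mean, Hba-a1, Hba-a2 and Hbb-bt were highest at 2.5 μg/mouse of CuO COOH in PBS-challenged mice (17.15, 17.31 and 16.14) and lowest at 40 μg/mouse of CuO COOH with OVA (14.68, 15.04 and 12.95). From highest to lowest group the span was 2.47 for Hba-a1, 2.27 for Hba-a2, 3.18 for Hbb-bt, 3.08 for Alas2 and 3.92 for Ahsp, on the log2 scale. None is given for Slc4a1, whose lowest groups were not well above background. The spans are not compared between genes. By median rank among 56605 probes, the α-globin probes stood at 16, 17 and 68 from the brightest, and that of Hbb-bt at 286. Most neighbours in these orders did not differ beyond their spread: of the 25 steps between neighbouring groups, 23 or 24 were no larger than the larger SD of the pair for each gene. The widest exceptions were in Hbb-bt, where 10 μg/mouse of CuO NH3 with OVA stood 0.64 below the next group, 10 μg/mouse of CuO COOH with OVA, and in Ahsp, where 40 μg/mouse of CuO PEG with OVA stood 0.62 below 10 μg/mouse of CuO with OVA.

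The comparison of exposed with control mice asks how exposure moved each transcript. It was estimated by a linear model on all genes with dye and array as terms, so that a sample is read against its partner on the array. With CuO at 40 μg/mouse and PBS the differences from PBS controls were −3.38 ± 0.48 (SE, log2; n = 3 against 7) for Hba-a1, −3.29 ± 0.47 for Hba-a2, −3.75 ± 0.52 for Hbb-bt and −3.42 ± 0.49 for Alas2, which are folds of 10.4, 9.77, 13.4 and 10.7. Slc4a1 was at −1.27 ± 0.51 and Ahsp at 0.04 ± 0.50. The size depended on the batch terms: with slide and position in place of array the differences were −2.14, −1.77, −3.12 and −2.97 for the 4 genes, and −1.19 for Slc4a1 and −0.88 for Ahsp, so the sign of Ahsp turned.

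CuO COOH and CuO NH3 at 40 μg/mouse gave values of the same order in PBS-challenged mice. With CuO COOH the differences were −2.73 ± 0.46 for Hba-a1, −2.61 ± 0.46 for Hba-a2, −3.58 ± 0.51 for Hbb-bt, −3.10 ± 0.47 for Alas2 and −1.58 ± 0.49 for Slc4a1. Ahsp stood at 0.19 ± 0.49, or −0.44 with slide and position. With CuO NH3 the same 5 genes were at −2.10 ± 0.34, −1.84 ± 0.33, −2.87 ± 0.37, −2.56 ± 0.34 and −1.35 ± 0.36, with Ahsp at −0.45 ± 0.35. With slide and position as terms the α-globin values were nearer 0, at −2.08 and −1.73 with CuO COOH and at −1.64 and −1.36 with CuO NH3. For CuO PEG the differences were −0.89 ± 0.40 for Hba-a1, −0.81 ± 0.39 for Hba-a2, −1.25 ± 0.43 for Hbb-bt, −1.36 ± 0.41 for Alas2, −0.63 ± 0.42 for Slc4a1 and −0.49 ± 0.42 for Ahsp. With slide and position they became −0.30, −0.13, −0.91, −1.20, −0.66 and −0.04 in that order. All 6 were below 0 in both fits, and the comparisons of the 4 materials share the same PBS controls.

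In OVA-challenged mice given 40 μg/mouse, the estimated differences of the globins and Alas2 from OVA controls were set beside those in PBS-challenged mice. They were nearer 0 for CuO, CuO COOH and CuO NH3, and farther from it for CuO PEG. With slide and position as terms the α-globins went the other way for CuO COOH, at −2.33 and −2.15 with OVA beside −2.08 and −1.73 with PBS. For CuO NH3 the mean levels of Hba-a1 were then close, at 15.34 with OVA and 15.38 with PBS, beside controls of 17.00 and 17.01. The 40 μg/mouse dose of CuO gave −2.36 ± 0.47 for Hba-a1, −2.22 ± 0.47 for Hba-a2, −2.87 ± 0.52 for Hbb-bt and −2.47 ± 0.49 for Alas2, with −1.34 ± 0.51 for Slc4a1. Ahsp was at −1.57 ± 0.50, which became −2.91 with slide and position. CuO PEG gave −2.58 ± 0.43 for Hbb-bt and −2.27 ± 0.41 for Alas2, and −1.63 ± 0.40 for Hba-a1. The effect in OVA-challenged minus that in PBS-challenged mice is given as a description. For Hbb-bt that difference was −1.33 ± 0.62 (SE) with CuO PEG and 0.87 ± 0.58 with CuO at 40 μg/mouse.

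CuO COOH and CuO NH3 at 40 μg/mouse with OVA also stood below the OVA controls for all 6 genes. With CuO COOH they ran from −2.71 ± 0.37 for Hbb-bt to −1.15 ± 0.35 for Ahsp and −1.03 ± 0.36 for Slc4a1. With CuO NH3 they ran from −2.49 ± 0.40 for Hbb-bt to −1.44 ± 0.36 for Hba-a2. At 10 μg/mouse Hbb-bt and Alas2 stood at −1.73 ± 0.37 and −1.80 ± 0.35 with CuO NH3 and PBS, and the globins and Alas2 ran from −1.91 to −1.39 with CuO COOH and OVA.

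**Figure D2:**
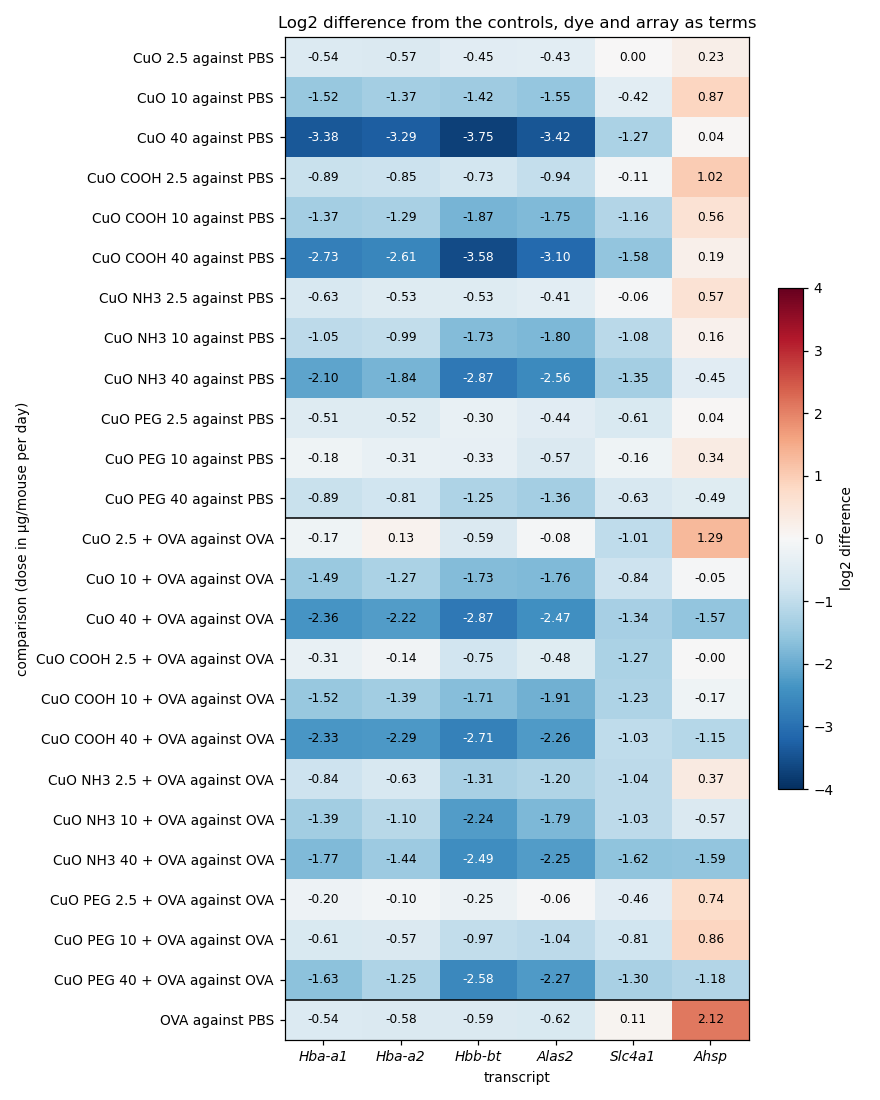
Log2 difference from the matching controls for each of the 6 erythrocyte transcripts (columns) in 25 comparisons (rows: 24 exposed groups and OVA against PBS controls), in colour from −4 to 4, from the fit with dye and array. The value is printed in each cell; the deepest is −3.75, for Hbb-bt at 40 μg/mouse of CuO in PBS-challenged mice, and the strongest positive one is 2.12, for Ahsp in OVA against PBS controls.

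Between the controls, OVA challenge was set against PBS. Ahsp was higher by 2.12 ± 0.30 (SE, log2; n = 8 against 7), a fold of 4.34. Every OVA control was above every PBS control for Ahsp, as for 9.09% of all genes. On slides 1 to 3 alone its difference was 2.18 ± 0.31 and on slides 4 to 6 alone 1.98 ± 0.57. The globins and Alas2 stood between −0.62 and −0.54, values that became −0.01 for Hba-a1, 0.07 for Hba-a2, −0.27 for Hbb-bt and −0.54 for Alas2 with slide and position as terms, and Slc4a1 was at 0.11 ± 0.31. The array-based values of the globins and Alas2, each about 2 standard errors in size, are a description and carry no test. The size of the globin values rested on the batch terms.

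Setting the modified materials against core CuO asks whether the surface coating goes with another level at equal dose. CuO PEG lay above core CuO at 40 μg/mouse in PBS-challenged mice by 1.84 ± 0.34 (SE, log2) for Hba-a1, 1.64 ± 0.38 for Hba-a2, 2.21 ± 0.33 for Hbb-bt and 1.77 ± 0.33 for Alas2. Slc4a1 stood at 0.53 ± 0.29 and Ahsp at 0.84 ± 0.39, which turned to −0.53 with array as a term. With OVA the same pair of materials differed by 0.53 ± 0.37 for Hba-a1, 0.22 ± 0.36 for Hbb-bt and −0.12 ± 0.36 for Alas2, with Ahsp at 1.59 ± 0.42, or 0.38 with array as a term. CuO COOH and CuO NH3 lay within −0.33 to 0.50 of core CuO at 40 μg/mouse in PBS-challenged mice for all 6 genes, whereas with array as a term the α-globins were higher with CuO NH3 than with core CuO by 1.28 and 1.44 and with CuO COOH by 0.65 and 0.68. CuO PEG and CuO NH3 lay on other slides than core CuO, so these values rest on the controls that bridge the 2 sets of slides. Equal dose means equal mass of material, not of copper.

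The 6 transcripts were related to one another as follows, over samples that share arrays, slides and groups. Hbb-bt and Alas2 had a Pearson correlation of 0.98 over 89 samples and of 0.85 after taking out the group means. Hba-a1 and Hba-a2 gave 0.97 and 0.94, Hba-a1 and Hbb-bt 0.96 and 0.84. Ahsp stood aside over all samples, with values of 0.24 to 0.28 against the other 5, and ran with them inside either challenge, at 0.63 to 0.76 over 45 PBS-challenged or 44 OVA-challenged samples. After taking out the group means its correlations with the other 5 were −0.20 to 0.22.

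**Figure D3:**
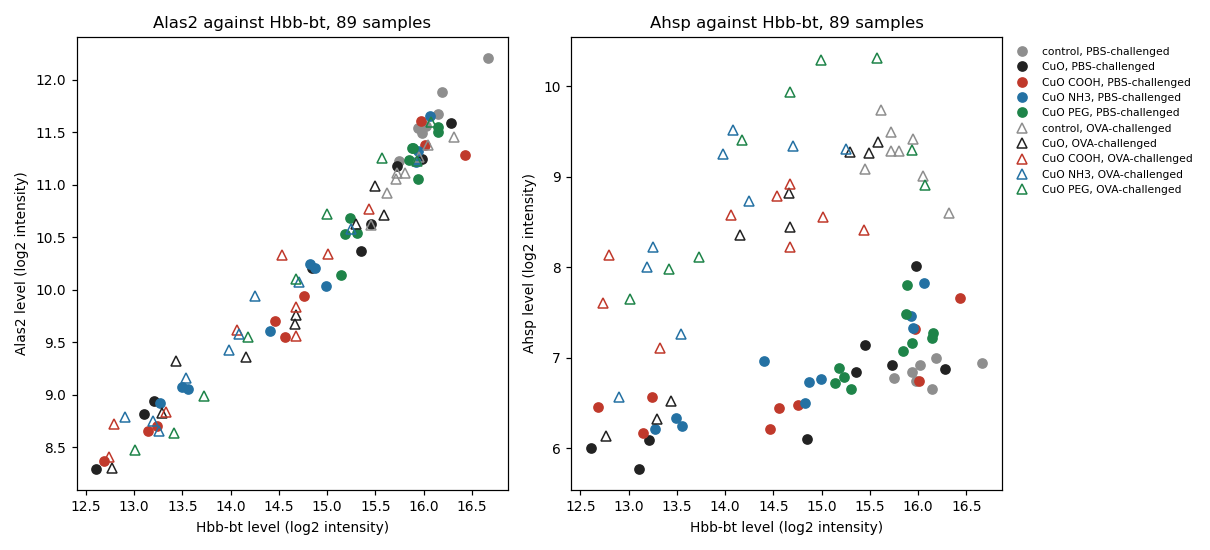
Level of Alas2 (left) and of Ahsp (right) on the y axis against that of Hbb-bt on the x axis, all as log2 intensity, 1 point for each of 89 samples; colours are materials, filled circles PBS-challenged and open triangles OVA-challenged mice. Hbb-bt and Alas2 fall on 1 line in both challenges, with a correlation of 0.98, while Ahsp lies higher with OVA at a like level of Hbb-bt, apart from a few samples that include all 3 given 40 μg/mouse of CuO with OVA, at 6.14, 6.32 and 6.52.

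The genes whose pattern was most like the mean of the standardised 6 were sought among 22846 other genes. Among the closest were Hbb-b2, with a correlation of 0.95 over 89 samples, Cd207 and Zdhhc22 at 0.93 each, and Hbb-b1 at 0.90, and the most opposite were Olfml2b and Col5a1 at −0.92. The median over all genes was −0.01, with 2.5% of genes under −0.71 and 2.5% over 0.64. After removal of group means those close to it included Hbb-b2 at 0.87, Zdhhc22 at 0.70, Hbb-b1 at 0.68 and Bpgm at 0.62. Hbb-b2 and Hbb-b1 are the adult β-globin genes of the haplotype that BALB/c mice carry, and Bpgm makes the red cell's 2,3-bisphosphoglycerate.

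Hbb-b2 traced the pattern of Hbb-bt group by group. Probes of these near-identical genes may read one another's transcripts, so the likeness may not come from separate measurements. It averaged 15.85 ± 0.27 (SD, n = 7) in PBS controls, 12.93 ± 0.30 at 40 μg/mouse of CuO and 14.98 ± 0.10 at 40 μg/mouse of CuO PEG (n = 3 each). With OVA the means were 15.45 ± 0.29 (n = 8) in controls, 13.14 ± 0.37 with CuO and 13.29 ± 0.26 with CuO PEG. Col5a1, a collagen chain, went the other way, from 10.40 ± 0.17 in PBS controls to 12.11 ± 0.06 at 40 μg/mouse of CuO.

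**Figure D4:**
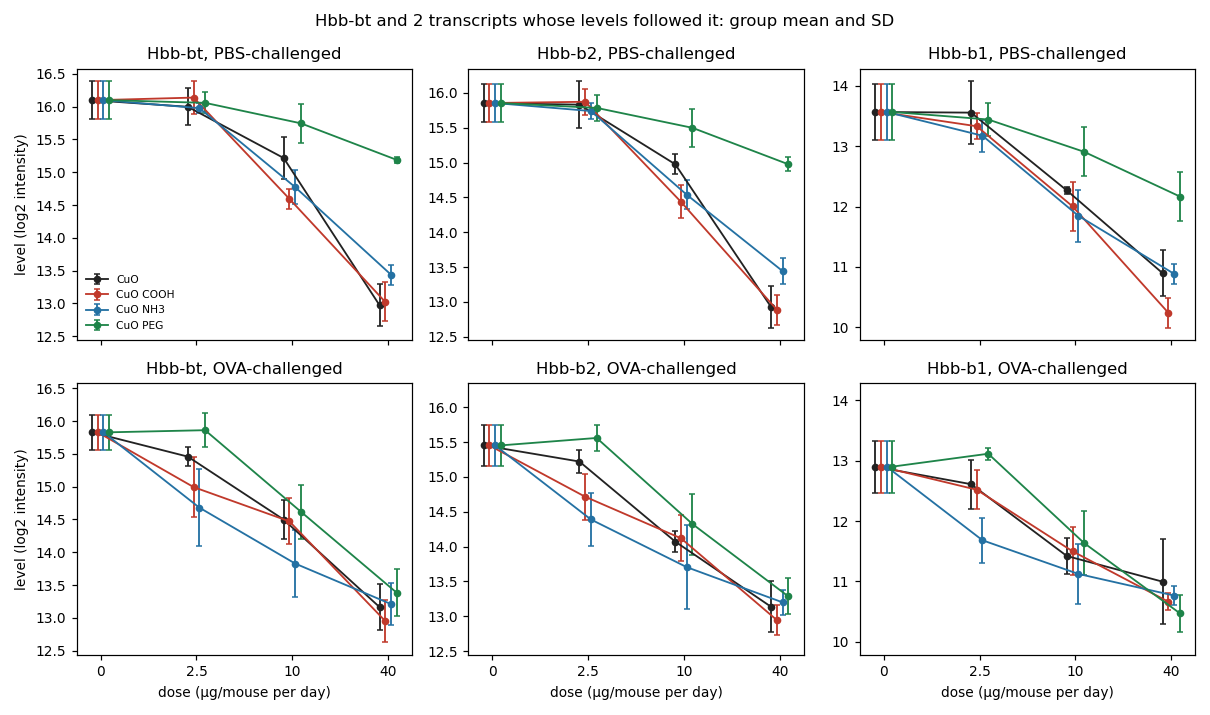
Group means (points, joined by lines) and SD (bars) of Hbb-bt and of Hbb-b2 and Hbb-b1, as log2 intensity on the y axis, against dose in μg/mouse on the x axis (evenly spaced doses), with PBS-challenged mice above and OVA-challenged mice below; colours are materials, and dose 0 is the shared control group. Hbb-b2 and Hbb-b1 drop at 40 μg/mouse of CuO, from 15.85 to 12.93 and from 13.57 to 10.90, and with CuO PEG stand higher after PBS than after OVA challenge.

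Other listed genes of the red cell lineage, among which Hbb-b1 and Hbb-b2 were not included, did not move as a body with the 6. The lists of such genes, 5 in number and holding 71 genes of which 70 were measured, covered other globins, haem synthesis and iron supply, the membrane and its skeleton, erythroid transcription and maturation, and cytosolic enzymes. These genes were tested, and called past a threshold of an adjusted p below 0.05 (limma, Benjamini-Hochberg adjusted over all genes) and a log2 difference beyond 0.58. With 40 μg/mouse of CuO and PBS 4 were higher and 9 lower, 18.6% of those measured beside 14% of all genes, and their median difference was −0.13 beside 0.01 for all genes. With CuO COOH 4 were higher and 7 lower (10.3% of all genes called), and with CuO NH3 3 and 9 (13.2%). With CuO PEG none passed in either direction by limma (2.18% of all genes), although 10 had an unadjusted p below 0.05. With OVA 1 of the 70 was lower at 40 μg/mouse of CuO (1.58% of all genes called), 4 with CuO COOH (3.81%), 3 with CuO NH3 (3.98%) and 3 with CuO PEG (0.642%), and none was higher. OVA against PBS controls gave 1 higher and 1 lower (5.22%). CuO PEG against core CuO at 40 μg/mouse in PBS-challenged mice gave 3 higher and none lower (4.39%), and the effect of 40 μg/mouse of CuO differed between challenges for 1 gene, Lmo2 (1.1%).

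Genes of haem synthesis and iron supply split by direction. Of 15 measured, all well above background in every sample, 2 rose and 1 fell at 40 μg/mouse of CuO in PBS-challenged mice. Tfrc, the transferrin receptor, was among those that rose, and Fech, which inserts iron into haem, fell by 0.80 ± 0.25 (SE, log2; limma adjusted p = 0.0264). Most of these genes are used by many cells, and the median of the list was 0.20 there. None of the 5 measured genes in the list of other globins passed in the CuO group, and 4 of them were well above background in under 10 samples. That list did not hold Hbb-b1 and Hbb-b2, which were well above background in all 89 samples. They stood at −3.40 ± 0.60 and −3.64 ± 0.45 (SE, log2) in the same comparison.

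Among 18 genes of erythroid transcription and maturation 5 fell at 40 μg/mouse of CuO in PBS-challenged mice and none rose, with a median of −0.37. They were Lmo2 at −1.36 ± 0.19 (SE, log2; limma adjusted p = 1.81e-05), or −0.88 with slide and position, and Tal1 at −1.04 ± 0.26 (adjusted p = 0.00708), both also used by endothelial cells, with Epor, Bnip3l and Tent5c. The master regulators Gata1 and Klf1 did not pass there; Klf1 was well above background in 22 samples and Gata1 in 88. Of 20 membrane genes only Gypc, a glycophorin, fell in that group, and several defining ones stayed near background: Epb42 was well above it in 1 sample, and Rhag and Kel in none. Among the cytosolic proteins, Cat, the catalase that red cells hold in quantity and other cells too, fell by 1.30 ± 0.20 at 40 μg/mouse of CuO NH3 (adjusted p = 2.57e-05). That list split by direction at 40 μg/mouse of CuO in PBS-challenged mice. Blvrb and Acp1 rose, by 0.83 ± 0.23 and 0.66 ± 0.15, and Cat, at −1.16 ± 0.28, was among those that fell.

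**Figure D5:**
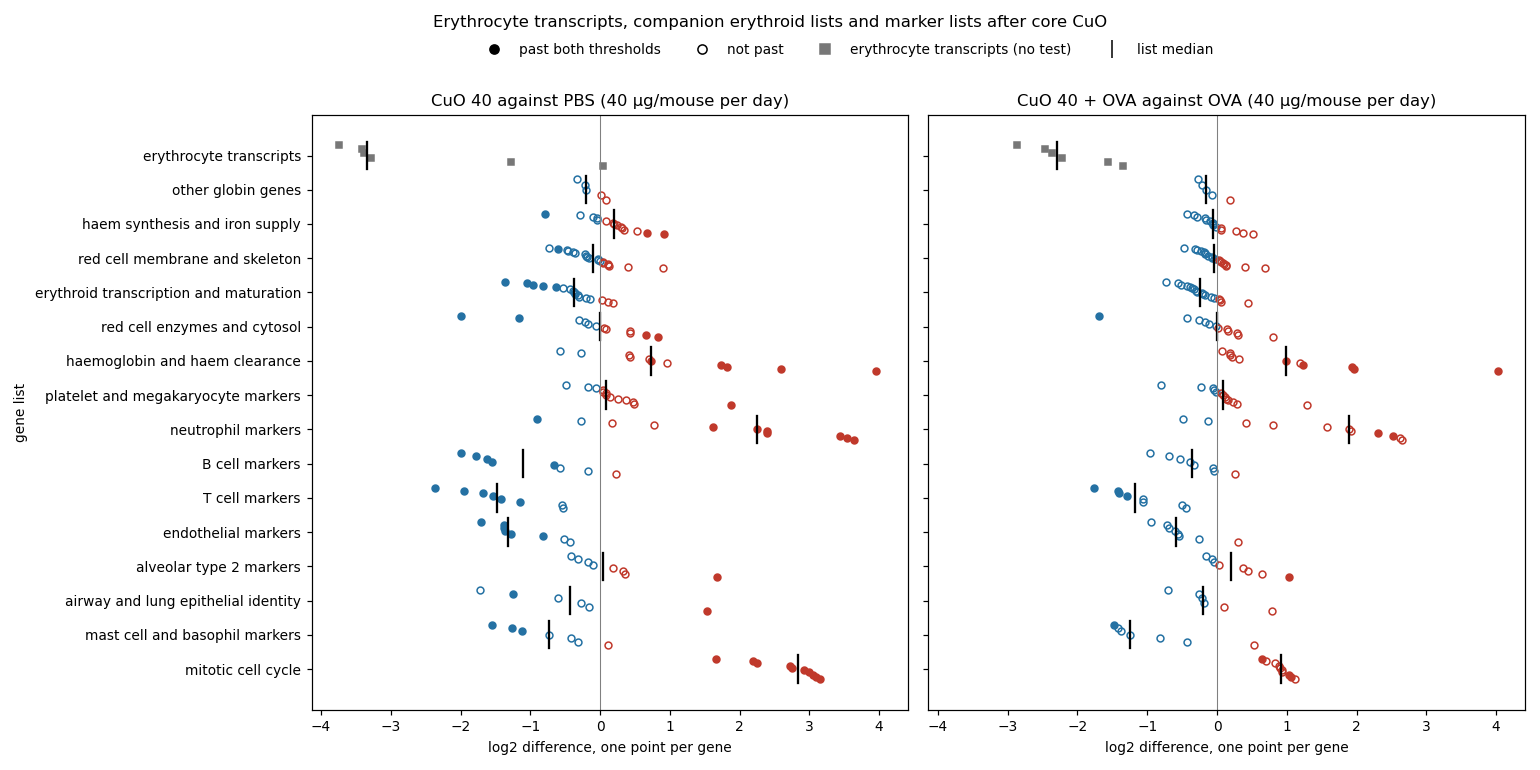
Log2 difference (x axis) of each gene at 40 μg/mouse of core CuO against PBS controls (left) and, with OVA, against OVA controls (right), by list (rows): the 6 erythrocyte transcripts, the 5 lists of other red cell genes and 10 lists of other cell types and processes; filled circles are past the threshold and open ones not, red is higher and blue lower, grey squares are the 6 transcripts, which carry no test, and upright bars are list medians. On the left mitotic genes have a median of 2.83, T cell markers of −1.47 and endothelial markers of −1.32, and the other red cell lists straddle 0.

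Of 11 genes that take up or break down free haemoglobin and haem, 5 rose and none fell at 40 μg/mouse of CuO in PBS-challenged mice, with a median of 0.73. Hmox1, haem oxygenase, which is induced by many stresses besides haem, rose in 19 of the 24 exposed groups, by 4.91 ± 0.32 (SE, log2; limma adjusted p = 1.53e-09) or 30-fold at 40 μg/mouse of CuO COOH in PBS-challenged mice, a log2 difference that was 2.81 with slide and position as terms. Hp, haptoglobin, the plasma protein that binds free haemoglobin, rose by 2.60 ± 0.24 (adjusted p = 1.29e-07) at 40 μg/mouse of CuO, or 1.25 with slide and position. Of 13 platelet and megakaryocyte markers 1 rose and none fell in that group, with a median of 0.08, and Pf4 rose by 2.00 ± 0.27 (adjusted p = 5.16e-06) at 40 μg/mouse of CuO NH3.

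Markers of other cells in the lung moved as well, and their part in the levels of the red cell transcripts was not tested. After CuO at 40 μg/mouse with PBS, 6 of 8 endothelial markers fell and none rose (median −1.32; Kdr −1.70 ± 0.20, SE, limma adjusted p = 2.96e-06), 6 of 8 T cell markers fell (median −1.47; Cd2 −2.37 ± 0.20, adjusted p = 4.53e-08) and 5 of 8 B cell markers fell (median −1.11). Neutrophil markers rose for 7 of 11 and fell for 1 (median 2.25), and all 10 mitotic genes rose (median 2.83). The summed level of the 8 endothelial markers ran from 17.10 to 17.44 in PBS controls and from 16.13 to 16.32 with CuO, and that of the 6 red cell transcripts from 18.23 to 18.78 and from 15.88 to 16.57. With CuO PEG at the same dose no endothelial, T cell or B cell marker passed limma's test in either challenge. Few genes passed there at all, 2.18% of all genes with PBS and 0.642% with OVA, so the lack of calls does not show that these markers were unchanged. By limma 6, 1 and 1 of them had an unadjusted p below 0.05 with PBS and 4, 1 and 0 with OVA. Endothelial medians were −0.49 and −0.42. In the OVA-challenged CuO PEG group Hbb-bt differed from its controls by −2.58 and Alas2 by −2.27.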

How the data were processed

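The 89 samples lay on 46 two-colour Agilent mouse arrays on 6 slides. The authors deposited Feature Extraction output, from which the median foreground intensity of each channel was used, and a table of log2 values that they had quantile normalised. Their methods name ComBat adjustment for labelling and array. The file headers give Feature Extraction 12.0.2.2; versions of limma and sva were not given in the sources used here. Of 62976 spots, 3671 control spots and all spots marked as outliers were left out. Intensities were log2 transformed without background subtraction, quantile normalised over 89 samples and averaged by spot, probe and gene. Of 56605 probes, 32995 could be named through RefSeq accessions, giving 22912 genes. limma (3.58.1, R 4.3.3) was fitted to all genes, with dye and array as terms (17 residual degrees of freedom) for comparisons with controls and between challenges, and with dye, slide and position for modified against core CuO. Genes were called at a Benjamini-Hochberg adjusted p below 0.05 over all genes and a log2 difference beyond 0.58. Precision was limited by the number of arrays; the median foreground ranged from 62 to 203 between channels, and a median of 60.3% of spots (46.7% to 68.8%) were well above background. The 6 genes and all gene lists were chosen with earlier results of these data known. From each list at most 3 genes were named by rule, those with the largest called differences from controls; others named beside a count were chosen after their values were seen, and a few genes are counted in their lists but not reported here by name. The calculation was tested on simulated data. The alternatives tried were background correction by normexp (offset 50), loess, a filter on dim probes, the deposited table, other batch terms, a replicate block, controls of the same slides, the brightest probe and leaving out each sample in turn; 75th percentile scaling and splits by slide were chosen after seeing the data. Nothing in the labels ties the pools to single mice, so p-values measure the spread between pools. No 2 samples were copies of one another, the highest correlation between samples being 0.9974.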

Additional observations from a re-analysis of the deposited data

Results flagged for a closer look

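Hbb-bt in the PBS-challenged group given 10 μg/mouse of CuO PEG had 1 sample far from the others: replicate 1 read 15.306 on the log2 scale, where the other 3 read 15.84 to 15.94. Of 24 pairs of gene and group with 4 to 10 samples, it was the only one with such a gap, and chance gives about 1 in 20.

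For Lmo2, a transcription cofactor of the erythroid and endothelial lineages, the effect of 40 μg/mouse of CuO differed between challenges, by 0.8408 in OVA-challenged minus PBS-challenged mice (limma, past the threshold over all genes). It was −1.36 ± 0.19 (SE) in PBS-challenged mice. The call was lost when any of 18 single samples was left out.

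With 2.5 μg/mouse of CuO PEG, every sample of Alas2 lay below the mean of the controls in PBS-challenged mice (11.35 to 11.55 against 11.66) and above it in OVA-challenged mice (11.22 to 11.60 against 11.11), a difference of 0.4353 on the log2 scale with slide and position as terms. In the levels of single samples this difference was not tested; in the fit with dye and array it was 0.38 ± 0.63 (SE), from effects of −0.44 and −0.06.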

How the results depend on the processing

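The span of group means, taken on the average of the 6 transcripts, was 2.36 on the log2 scale and ran from 2.18 to 2.57 over the alternatives (2.28 to 2.47 leaving out single samples). The median over 24 comparisons of their mean difference from controls was −0.99; it was −0.75 with array as a random block, −0.74 with slide and position as terms and −0.70 with the replicate block, and −1.15 to −0.84 leaving out single samples. Quantile normalisation holds the median of all genes near 0, whereas 75th percentile scaling moved it by −0.37 to 0.80.

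Calls among the 70 other red cell genes in exposed groups numbered 58, and 89 with the random block and 26 with 75th percentile scaling (44 to 61 leaving out single samples). For OVA against PBS the 2 calls became 4 with the random block, 4 with the replicate block, 4 with the brightest probe, 4 with 75th percentile scaling with slide and position, 0 on slides 4 to 6, and 0 to 2 leaving out single samples (0 without PBS replicate 2 or OVA replicate 3). For the difference between challenges the 1 call, Lmo2, became 8 with the random block, 11 with slide and position, 6 with the replicate block, 9 with 75th percentile scaling with slide and position, 0 with controls of the same slides, the brightest probe or 75th percentile scaling, and 0 to 2 leaving out single samples (2 without CuO NH3 40 + OVA replicate 2). For modified against core CuO the 6 calls became 38 with the random block, 2 with array as a term and 40 with the replicate block (4 to 7). For the other marker lists the 364 calls became 552 with the replicate block and 164 with 75th percentile scaling (327 to 372). The causes were not tested.

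Replicate numbers were not taken to pair samples: deviations of same-numbered samples had a median correlation of 0.0524 over 984 pairs, beside −0.0219 over 2805 others. The correlation was over 0.1 in 372 of the 984 pairs and in 554 of the 2805 others, so some pairing by number may remain. Of the 44 other genes picked by rule, all 44 kept direction and call with the deposited table and with dim probes filtered. The other settings kept fewer, such as 35 with slide and position as terms and 25 with 75th percentile scaling. When the sample whose loss raised the adjusted p of a gene most was left out, 16 kept both, 26 lost the call and 2 turned sign. Signs turned for Hbb-bh1 with CuO COOH at 40 μg/mouse under 75th percentile scaling (0.0601), Tmod1 with CuO NH3 at 10 μg/mouse and OVA under the replicate block (0.0963), Abca3 with CuO NH3 at 40 μg/mouse under 75th percentile scaling with slide and position (0.0286), and, at 40 μg/mouse of CuO without CuO 40 replicate 2, Cd79b (1.0688) and Mcpt4 (0.0218). In 2 leave-outs, the comparison of CuO 2.5 + OVA with OVA and its difference between challenges could not be fitted.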

Other observations

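Between the OVA and PBS controls, where Ahsp differed and the globins overlapped, few other red cell genes passed limma's test: Slc2a1, the glucose transporter of red cells and many others, rose by 0.60 ± 0.20 (SE, log2; adjusted p = 0.0455), and Cat fell by 0.67 ± 0.17 (adjusted p = 0.00888). In the same comparison all 10 mitotic genes rose (median 1.63), 3 of 8 T cell markers rose and none fell, 4 of 8 endothelial markers fell and none rose, and 2 of 11 haem clearance genes rose.

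Among membrane genes of the red cell, Slc14a1, a urea transporter, fell by 0.77 ± 0.19 (SE, log2; limma adjusted p = 0.0155) at 40 μg/mouse of CuO COOH with OVA. At 40 μg/mouse of CuO in PBS-challenged mice 1 of 8 alveolar type 2 markers rose and none fell (median 0.04), 1 of 6 airway genes rose and 1 fell (median −0.44), and 3 of 7 mast cell and basophil markers fell and none rose (median −0.73).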
